A study of Mus musculus with 10 samples.

Results

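The genes described here are the 4 kinases that phosphorylate the translation initiation factor eIF2 on its alpha subunit, the 2 regulatory subunits and the adaptor of the phosphatase that reverses the mark, and the transcription factor that is translated when the mark is present. They are Eif2ak1, Eif2ak2, Eif2ak3, Eif2ak4, Ppp1r15a, Ppp1r15b, Nck1 and Atf4, taken by gene symbol from a table of 26312 mouse genes. All 8 were in the table and all 8 averaged 10 or more normalized counts over the libraries, the filter that 15180 genes passed and that set which were tested. RNA was sequenced from mammary epithelial cells of C57BL/6J mice aged 12 weeks, sorted from digested glands of the fourth pair as EpCAM-high, CD49f-low, Sca1-positive and CD49b-negative. The genotypes were RSK2(+/+), called WT here, and RSK2(-/-), called KO here, where RSK2 is a kinase of the ERK pathway encoded by Rps6ka3. Each genotype was sampled at 2 stages of the reproductive cycle, with 3 WT and 3 KO libraries at estrus and 2 WT and 2 KO libraries at diestrus. No treatment was given besides genotype and stage, and the labels do not say how the allele was made or in which cells it acts. Because WT also stands in the titles of KO libraries, groups follow the genotype entry and the library names. Whether a library came from 1 mouse or from a pool is not given, so p-values measure the spread between libraries.

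Phosphorylation of eIF2 alpha slows general translation while letting a few messages, Atf4 among them, be translated more, a circuit known as the integrated stress response. Each kinase reads a different stress: Eif2ak1 (HRI) heme shortage and mitochondrial stress, Eif2ak2 (PKR) double-stranded RNA, Eif2ak3 (PERK) unfolded protein in the endoplasmic reticulum, and Eif2ak4 (GCN2) amino acid shortage. Ppp1r15a (GADD34) and Ppp1r15b (CReP) bring protein phosphatase 1 to eIF2 alpha and so restore translation. Phosphorylation, translation and protein were not measured here, so every value below is a level of RNA.

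The normalized totals of the libraries ran from 14.1 M to 15.3 M counts, and 20831 to 22122 genes were above 0. All 10 markers of hormone-sensing luminal cells, the cell type of this sort gate, were present in every library, with a summed level of 402016 to 554320 normalized counts. Sums for other cell types were far lower, at most 3293 for luminal progenitor markers, 3101 for fibroblast, 2107 for basal, 826 for macrophage, 450 for erythroid, 188 for lymphocyte, 104 for endothelial and 2 for adipocyte markers. Most of the hormone-sensing sum came from Krt8, Krt18 and Krt19, while Esr1 was at 1468 to 3334 and Pgr at 748 to 1688. Marker sets differ in level, so these sums do not measure the share of luminal progenitors. At estrus the lymphocyte sum was 64 to 92 in WT and 139 to 188 in KO, through Trbc2, while Ptprc, which marks all leukocytes, was at 0 to 6. Rps6ka3 itself stood at 128 to 137 in WT estrus, 156 to 164 in KO estrus, 139 to 165 in WT diestrus and 156 to 165 in KO diestrus, so its RNA does not check the genotype labels. At diestrus the fibroblast sum was 648 and 580 in WT and 94 and 117 in KO. It came mainly from Dcn, at 615 and 561 against 64 and 99, while Col3a1 was at 13 and 3 against 21 and 7. The erythroid sum was 132 and 58 in WT and 313 and 450 in KO. The hormone-sensing luminal sum was 461327 and 508669 against 427704 and 402016, and the luminal progenitor sum 2831 and 1782 against 2994 and 3121. Those of macrophage and lymphocyte markers were 639 and 569 against 435 and 432, and 131 and 111 against 106 and 88. Of the macrophage markers, Cd74 was at 255 and 157 against 60 and 71, and Lyz2 at 62 and 29 against 3 and 11. Cd68 went the other way, at 77 and 100 against 134 and 115, and Csf1r overlapped, at 217 and 278 against 236 and 234. None of these diestrus sums overlapped between genotypes, as for 43.1% of tested genes. The basal, endothelial and adipocyte sums did overlap at diestrus. They were at 901 and 558 against 858 and 437, 104 and 46 against 84 and 22, and 2 and 0 against 0 and 0. The 3 KO estrus libraries stood apart from the other 7 on the leading principal component (29.3% of the variance), with scores of 37.4 to 55.8 against -33.1 to -5.50. In them, longer transcripts also had lower log2 levels, with slopes of -0.116, -0.0316 and -0.0765 per doubling of length in KO estrus 1, 2 and 3. The same slope was -0.0250, 0.0348 and 0.0285 in WT estrus 1, 2 and 3 and 0.0331 to 0.0577 in the diestrus libraries. In bulk RNA of this kind, fewer cells of a type and less RNA per cell cannot be told apart.

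Promoter sequence is shown for Eif2ak3, whose window held the most CCAAT boxes of the member windows, and for Ppp1r15a and Eif2ak2, whose windows held matches to response elements. RefSeq windows of build GRCm38.p6, each 300 bases long from 250 before to 50 after the gene's start, were found for 7 of the 8 members, in 9 windows. The Eif2ak3 promoter, chr6:70844265-70844514 on the plus strand, is printed with the CCAAT boxes, read on either strand, in capitals. The Ppp1r15a promoter, chr7:45526269-45526518 on the minus strand, has in capitals a match to the cyclic AMP response element TGACGTCA and a match to the core of the interferon-stimulated response element, GAAA and GAAA separated by 2 bases. The Eif2ak2 stretch, chr17:78882535-78882564 on the minus strand, lies after the gene's start and has the interferon response core in capitals.
Eif2ak3: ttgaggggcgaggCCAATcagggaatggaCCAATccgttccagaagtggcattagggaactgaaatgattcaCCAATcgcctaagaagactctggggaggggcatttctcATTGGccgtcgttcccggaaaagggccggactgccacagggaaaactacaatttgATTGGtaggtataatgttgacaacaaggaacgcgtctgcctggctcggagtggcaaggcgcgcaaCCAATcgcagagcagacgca
Ppp1r15a: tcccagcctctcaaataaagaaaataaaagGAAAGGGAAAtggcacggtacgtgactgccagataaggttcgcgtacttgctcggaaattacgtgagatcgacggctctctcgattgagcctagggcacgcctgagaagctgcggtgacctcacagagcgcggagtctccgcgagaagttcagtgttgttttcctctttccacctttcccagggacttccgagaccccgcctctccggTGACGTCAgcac
Eif2ak2: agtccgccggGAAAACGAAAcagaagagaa

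Eif2ak3 held 6 matches to CCAAT, the box bound by the factor NF-Y. They started at 237, 221, 178, 140, 85 and 20 bases before the gene's start, with those at 140 and 85 on the opposite strand. At least 1 CCAAT match was found in 37.9% of the windows of 27025 genes, and 6 or more in 22 of them, 0.0814%, a count made after the Eif2ak3 window had been seen. The cyclic AMP response element, present in 1.88% of the windows, began 12 bases before the Ppp1r15a start. The interferon response core, present in 3.49%, began 220 bases before the Ppp1r15a start and 19 bases after the Eif2ak2 start, Eif2ak2 being a gene that interferon is known to induce. Of the other windows, those of Atf4 and Nck1 held 2 CCAAT matches each and that of Eif2ak1 held 1. The letters of the C/EBP-ATF composite site, TGATGNAA, and of both forms of the endoplasmic reticulum stress element, CCAAT and CCACG separated by 9 or 10 bases, did not occur in any member window. They occur in 4.06%, 0.13% and 0.0481% of all windows. These matches describe letters, and no binding was measured.

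Per kilobase of the longest annotated transcript, the members spanned a wide range of levels. Ppp1r15a was highest with a mean over the 10 libraries of 3798 normalized counts per kilobase, followed by Atf4 with 2809. Their ranges, 3180 to 4603 and 2185 to 3264, overlapped, although Ppp1r15a was above Atf4 within each of the 10 libraries. Eif2ak1 came next with 246.6, then Ppp1r15b with 179.7 and Eif2ak3 with 154.4. The ranges of these 3, 190.3 to 307.1, 122.8 to 292.5 and 59.61 to 255.0, overlapped one another. Nck1 followed with 81.21, ranging from 53.17 to 100.5. Eif2ak2 and Eif2ak4 were the lowest with 37.65 and 35.64, and their ranges of 25.97 to 48.23 and 21.90 to 48.32 covered each other almost wholly. By group mean Eif2ak1 was the most abundant kinase RNA and Eif2ak3 the next in all 4 groups, although in WT diestrus 2 Eif2ak3 was at 255.0 and Eif2ak1 at 228.0. By group mean, Eif2ak3 was above Ppp1r15b in both WT groups, at 175.8 against 157.5 at estrus and 222.1 against 184.1 at diestrus. The order was mixed within WT, with Eif2ak3 below Ppp1r15b in WT estrus 2 (171.9 against 186.4) and WT diestrus 1 (189.2 against 190.4). In both KO groups Eif2ak3 was below Ppp1r15b in every library, with means of 75.26 against 139.6 and 173.1 against 268.9.

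**Figure D1:**
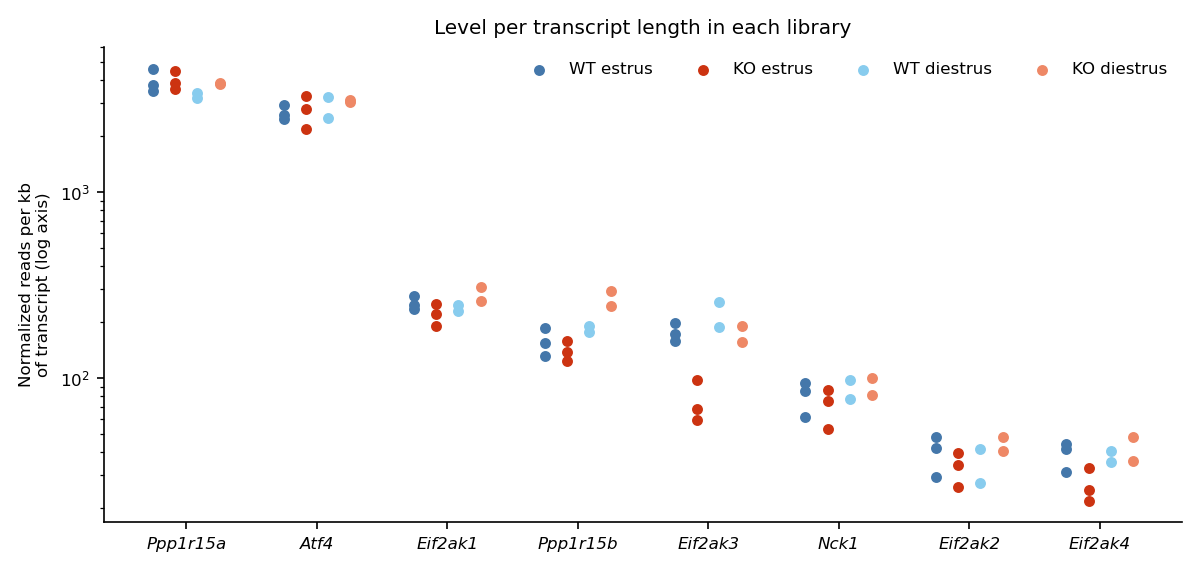
Normalized counts per kilobase of the longest annotated transcript on a log axis for the 8 genes, with 1 point per library coloured by group. Ppp1r15a and Atf4 lie at 2185 or more in every library, Eif2ak2 and Eif2ak4 at 48.32 or less, and the 3 KO estrus points of Eif2ak3 lie apart below its other 7.

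Among the kinases, Eif2ak3 differed most with genotype at estrus. This kinase sits in the membrane of the endoplasmic reticulum (ENSMUSG00000031668, chr6:70844515-70905245 on the plus strand of GRCm38). It was at 715, 776 and 889 normalized counts in WT estrus, 269, 443 and 307 in KO estrus, 854 and 1151 in WT diestrus, and 857 and 705 in KO diestrus. All 3 KO estrus libraries were lower than each of the other 7, and the other 3 groups overlapped. Of all tested genes, 13.1% had every KO library below every WT library at estrus. In limma's fit the KO minus WT difference at estrus was -1.25 on the log2 scale (SE 0.20, 95% interval -1.68 to -0.82, adjusted p = 0.01653), a level 2.38-fold lower in KO. With 3 libraries a group, the exact permutation test at estrus gave its smallest possible p, 0.1 (two-sided). Eif2ak3 was the only member called at estrus, where 4.2% of all tested genes were called and 2.94% were called lower and 1.26% higher.

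The length slope of the KO estrus libraries, given above, bears on this gene, whose longest transcript has 4513 bases. After removal of the dependence on length and GC content from each library, the Eif2ak3 difference was -1.15 (SE 0.18, limma adjusted p = 0.01758). The call was kept in 16 of 20 alternative settings. It was lost without KO estrus 1 (difference -1.10, limma adjusted p = 0.05171), without WT estrus 3 (-1.16, adjusted p = 0.053), with the 6 estrus libraries fitted alone (adjusted p = 0.06499) and without the trend in the spread (adjusted p = 0.05922). Whether the rise in the lymphocyte marker Trbc2 in the same libraries has a part in the result was not tested.

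At diestrus the Eif2ak3 difference between genotypes was -0.35 (SE 0.24, 95% interval -0.88 to 0.18, limma adjusted p = 0.9385), and the 2 groups overlapped. The difference of the genotype differences, estrus minus diestrus, was -0.90 (SE 0.31, unadjusted p = 0.01401) and did not pass after adjustment over all genes (limma, adjusted p = 0.2692). That the genotype difference in Eif2ak3 depended on stage was therefore not shown. Averaged over both stages, KO was lower, with a log2 difference of -0.80 (SE 0.16, limma adjusted p = 0.0457), in a contrast in which 0.665% of tested genes were called and 0.415% were called lower. The exact permutation test within stages gave p = 0.0333 (two-sided, smallest possible 0.0167), unadjusted over the 8 members, and 0.25 to 0.85 for the other 7. The averaged call was kept in only 6 of 19 alternative settings. Of the omissions of a single library, only that of KO estrus 2 kept it, with adjusted p-values up to 0.2972 for the others.

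**Figure D2:**
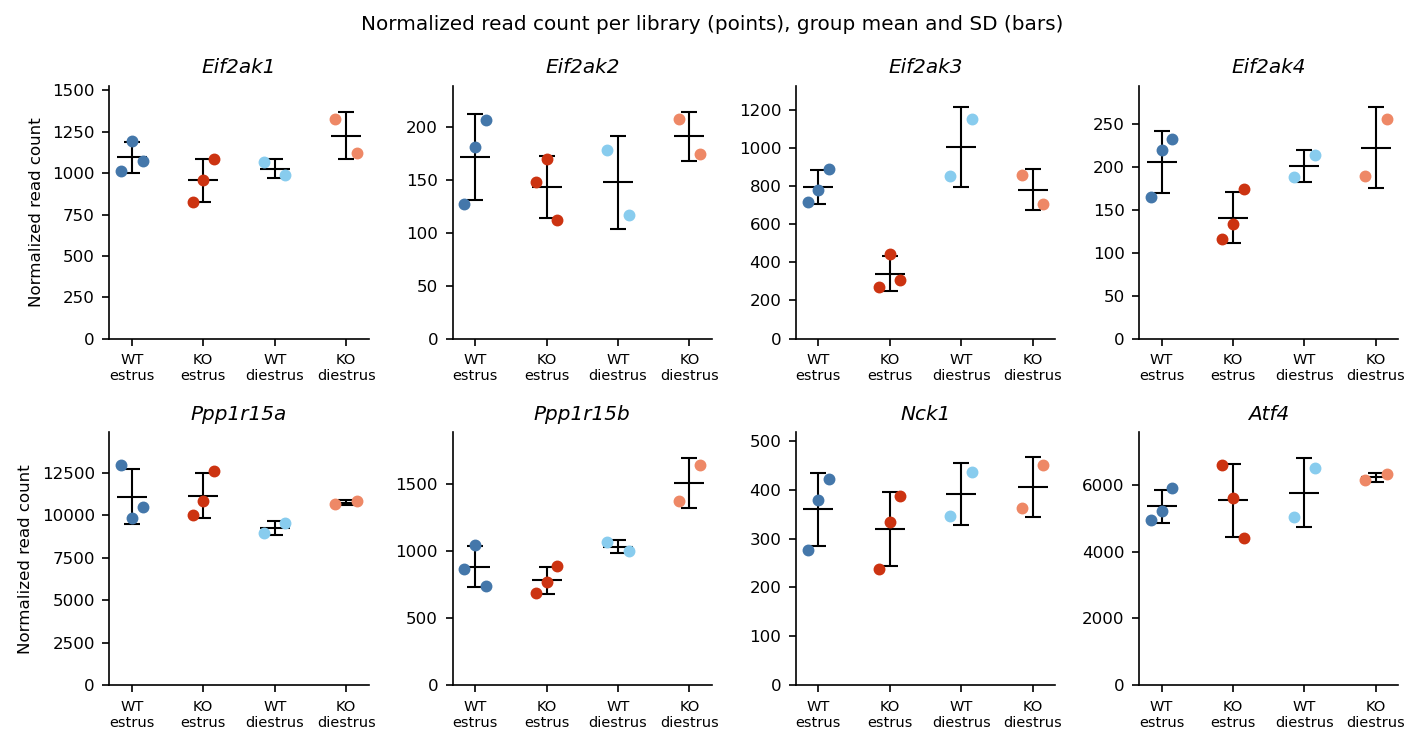
Normalized counts of each of the 8 genes (1 panel per gene, linear axis from 0) in the 4 groups, with 1 point per library and a bar at the group mean. The KO estrus points of Eif2ak3, 269 to 443, lie below all of its other points, and the KO diestrus points of Ppp1r15b, 1372 and 1636, above all of its other points.

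The remaining kinases did not pass the test between genotypes. Eif2ak4, the sensor of uncharged tRNA (ENSMUSG00000005102, chr2:118388618-118475234, plus strand), was at 165, 220 and 233 in WT estrus, 116, 133 and 174 in KO estrus, 188 and 214 in WT diestrus, and 189 and 256 in KO diestrus. Its lowest 2 libraries were both KO estrus, but KO estrus 3 was above WT estrus 1. Its estrus difference was -0.55 (SE 0.21, 95% interval -1.01 to -0.08, unadjusted p = 0.02437, limma adjusted p = 0.1304). Eif2ak1, which senses heme (ENSMUSG00000029613, chr5:143817788-143904251, plus strand), was at 1016, 1197 and 1074 in WT estrus, 823, 960 and 1087 in KO estrus, 1069 and 986 in WT diestrus, and 1328 and 1125 in KO diestrus. The estrus groups overlapped, with a difference of -0.20 (SE 0.14, limma adjusted p = 0.3993), and at diestrus both KO libraries were above both WT libraries, with a difference of 0.25 (SE 0.17, adjusted p = 0.9385). Eif2ak2 (ENSMUSG00000024079, chr17:78852564-78882573, minus strand) ranged from 112 in KO estrus 3 to 208 in KO diestrus 1, and its genotypes overlapped at both stages. Its differences were -0.25 (SE 0.25) at estrus and 0.40 (SE 0.30) at diestrus, with limma adjusted p-values of 0.5576 and 0.9578.

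In the phosphatase arm, the constitutive subunit Ppp1r15b separated KO diestrus from the other groups. Ppp1r15b (ENSMUSG00000046062, chr1:133131143-133139783, plus strand) was at 862, 1043 and 738 in WT estrus, 687, 769 and 886 in KO estrus, 1065 and 995 in WT diestrus, and 1372 and 1636 in KO diestrus. Both KO diestrus libraries were higher than the other 8, and the estrus groups overlapped. Eif2ak1, Ppp1r15a and Ppp1r15b had both KO diestrus libraries above both WT ones, as 21.4% of tested genes did. Against WT at diestrus the difference was 0.54 (SE 0.19, 95% interval 0.12 to 0.96, unadjusted p = 0.01633), which limma did not call after adjustment (adjusted p = 0.6663). No member was called at diestrus, where 0.0395% of tested genes passed, 6 in all, and 899 had an unadjusted p below 0.05 in limma. At estrus the Ppp1r15b difference was -0.17 (SE 0.16, limma adjusted p = 0.5386), and 0.01 with the trend on length and GC content removed. The marker sums that separated the same KO diestrus libraries from WT are given above, and their part in the diestrus values of Ppp1r15b and Eif2ak1 was not tested. The stage dependence of Ppp1r15b, -0.71 (SE 0.25, unadjusted p = 0.01515), did not pass after adjustment (limma, adjusted p = 0.2717).

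Ppp1r15a, the stress-inducible subunit (ENSMUSG00000040435, chr7:45522916-45526268, minus strand), was at 12930, 9858 and 10500 in WT estrus, 9998, 10847 and 12616 in KO estrus, 8934 and 9548 in WT diestrus, and 10631 and 10827 in KO diestrus. The estrus genotypes overlapped fully, with a difference of 0.01 (SE 0.15, 95% interval -0.33 to 0.35, limma adjusted p = 0.974). The WT diestrus libraries were the lowest 2 of the 10, with a KO minus WT difference of 0.22 at diestrus (SE 0.19, adjusted p = 0.9733). Nck1, an SH2 and SH3 adaptor that binds the phosphatase complex and Eif2ak3 (ENSMUSG00000032475, chr9:100492293-100546134, minus strand), ran from 238 to 450 with its lowest value in KO estrus and its highest in KO diestrus. Its groups overlapped between genotypes at both stages, and its differences were -0.18 (SE 0.22) at estrus and 0.05 (SE 0.27) at diestrus. The direction of both turned with the trend on length and GC content removed, to 0.09 and -0.02.

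Atf4, whose protein turns on amino acid synthesis and stress genes (ENSMUSG00000042406, chr15:80255184-80257541, plus strand), was at 4960, 5224 and 5903 in WT estrus, 6591, 5626 and 4411 in KO estrus, 5034 and 6503 in WT diestrus, and 6140 and 6322 in KO diestrus. KO estrus held both the highest and the lowest of the 10 values, so no group stood apart. The genotype difference was 0.03 at estrus (SE 0.17, 95% interval -0.34 to 0.40, limma adjusted p = 0.9247) and 0.12 at diestrus (SE 0.21, adjusted p = 0.9964). Since Atf4 is controlled mainly by translation, its RNA does not measure its protein.

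**Figure D3:**
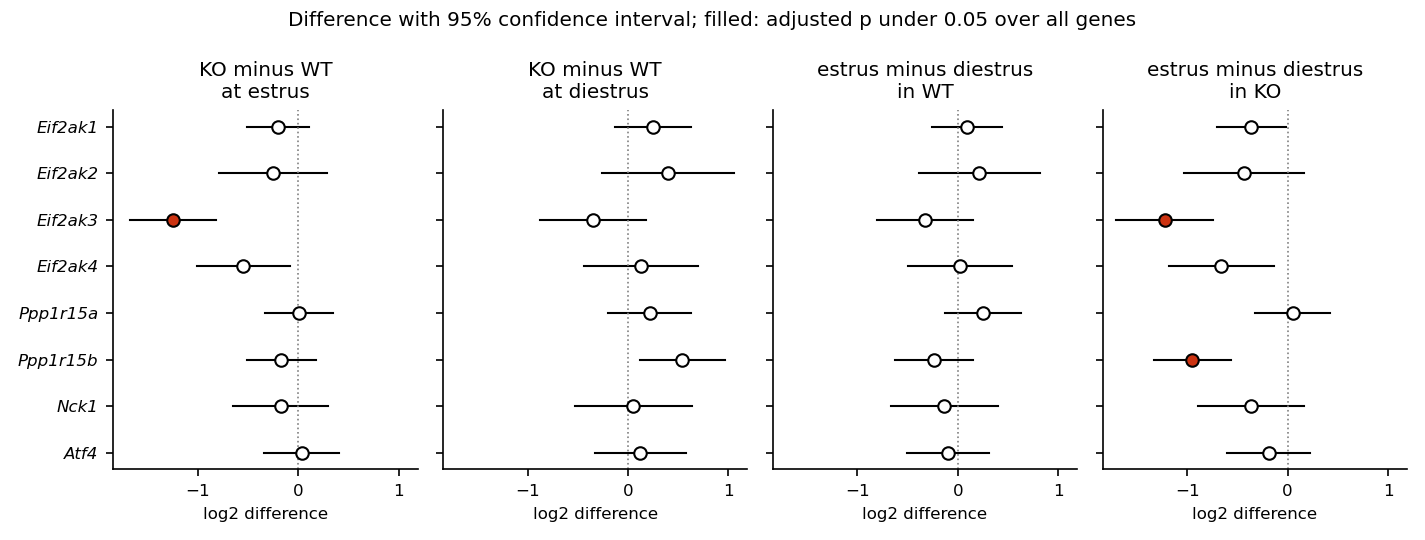
Differences of the 8 genes on the log2 scale with 95% intervals from limma, in the comparisons of genotype and of stage. Filled points mark an adjusted p of at most 0.05, which Eif2ak3 reached between genotypes at estrus and between stages in KO, and Ppp1r15b between stages in KO.

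Between stages, 2 of the 8 members were called in KO and 0 in WT. In KO, Eif2ak3 was lower at estrus than at diestrus, with a log2 difference of -1.22 (SE 0.22, 95% interval -1.71 to -0.74, limma adjusted p = 0.007625), 2.34-fold. Ppp1r15b was lower as well, with a difference of -0.95 (SE 0.18, 95% interval -1.33 to -0.56, limma adjusted p = 0.008093), 1.93-fold. These 2 of 8 members were called lower in a contrast in which 16.6% of tested genes were called, 8.95% lower and 7.67% higher. Eif2ak4 had a difference of -0.66 (SE 0.24, limma adjusted p = 0.07615). Those of Eif2ak1, Eif2ak2 and Nck1 were -0.36, -0.43 and -0.36, with limma adjusted p-values of 0.1322, 0.2955 and 0.3216. Atf4 and Ppp1r15a were at -0.19 and 0.05. All 4 kinases and Ppp1r15b had every KO estrus library below both KO diestrus libraries, a separation that 26% of tested genes showed in that direction. With the trend on length and GC content removed, Eif2ak1, Eif2ak2, Eif2ak4 and Nck1 were at -0.19, -0.15, -0.44 and -0.04. Atf4 was then at -0.44 and Ppp1r15a at -0.10, and none of these genes was called. The 2 stage calls rest on the pair of KO diestrus libraries. Without KO diestrus 1 the adjusted p was 0.06587 for Eif2ak3 and 0.05238 for Ppp1r15b in limma, and without KO diestrus 2 it was 0.08641 and 0.1193. With the trend on length and GC content removed both calls were kept, at -1.08 (limma adjusted p = 0.01202) for Eif2ak3 and -0.69 (adjusted p = 0.03249) for Ppp1r15b. The number of genes called over the whole table fell from 2524 to 151 and 39 with the same omissions. This comparison shares the 3 KO estrus libraries with the genotype comparison at estrus.

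In WT no member was called between stages, and over all tested genes limma called 0 (0%), with 588 at an unadjusted p below 0.05. Eif2ak3 was at -0.33 (SE 0.22, 95% interval -0.81 to 0.15), Ppp1r15b at -0.24 (SE 0.18) and Ppp1r15a at 0.25 (SE 0.17), each with a limma adjusted p of 1. Ppp1r15a was the only member whose WT libraries did not overlap between stages, higher at estrus, as 8.72% of tested genes were. The interaction of genotype and stage, which tests whether the stage difference differed between genotypes, was below 0 for all 8 members with a median of -0.55, against -0.01 over all tested genes. It called 0 members and 0 of all tested genes (0%), while 2150 had an unadjusted p below 0.05 in limma. The same quantity was -0.68 for Eif2ak4, -0.65 for Eif2ak2, -0.45 for Eif2ak1, -0.23 for Nck1, -0.21 for Ppp1r15a and -0.09 for Atf4. For Nck1 it turned to 0.11 with the trend on length and GC content removed. It was then -0.80 for Eif2ak3, -0.53 for Eif2ak4, -0.52 for Ppp1r15b and -0.38 for Eif2ak2. For Ppp1r15a, Eif2ak1 and Atf4 it was -0.33, -0.31 and -0.31.

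Members varied unequally over the 10 libraries. The coefficient of variation was 40.0% for Eif2ak3 and 29.7% for Ppp1r15b, against 23.2% for Eif2ak4, 21.5% for Eif2ak2, 18.7% for Nck1, 13.1% for Atf4, 12.8% for Eif2ak1 and 11.8% for Ppp1r15a. As a description over 10 libraries that share group and scaling, the log2 levels of Eif2ak4 and Nck1 had a Pearson r of 0.86, those of Eif2ak3 and Eif2ak4 one of 0.74, and those of Eif2ak1 and Ppp1r15b one of 0.71. Eif2ak3 and Atf4 had an r of 0.20, and Ppp1r15a and Atf4 one of -0.47. Among 10412 genes with a mean of at least 50, the 5 most like Eif2ak3 over the same libraries were Sec24b, Yme1l1, Rubcn, Pik3cb and Gapvd1, with r of 0.97 to 0.98. Sec24b, a cargo subunit of the coat that leaves the endoplasmic reticulum, was at 755, 743 and 838 in WT estrus and 443, 548 and 504 in KO estrus. The 5 most like Ppp1r15b were Cdk7, Dennd5a, Llgl2, Pgm2 and Smad1, with r of 0.96 to 0.98. Cdk7, a kinase of transcription and the cell cycle, was at 530 and 499 in WT diestrus and 597 and 659 in KO diestrus.

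Some bases of the exons of 5 members lie in exons of a gene on the opposite strand, and whether counting used strand is not given in the sources used here. Eif2ak3 shares 485 of 6026 exon bases with Gm43292, whose own value was at most 208, and Ppp1r15b shares 640 of 5594 with Gm26616, at most 178. Eif2ak1 shares 487 of 5670 with Aimp2 and 172 with Ankrd61, Eif2ak2 174 of 5113 with Gm26637 and 47 with n-R5s29, and Ppp1r15a 12 of 2937 with Tulp2. Reads from these bases cannot be assigned to 1 gene without strand.

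The genes around the kinases were read from lists. Of the 11 genes of eIF2 and its exchange factor eIF2B, 0 were called between genotypes at either stage. Eif2b2, a subunit of eIF2B, was higher at estrus in KO by 0.54 (SE 0.14, limma adjusted p = 0.02507), from 684 and 611 at diestrus to 965, 918 and 942 at estrus. With the trend on length and GC content removed this call was lost, at 0.24 (limma adjusted p = 0.2448). The substrate Eif2s1 was at 1557, 1679 and 2086 in WT estrus and 1071, 1342 and 1567 in KO estrus, with a difference of -0.42 (SE 0.16, limma adjusted p = 0.1258). The most abundant genes of the list, Eif5 and Eif2s2, differed by -0.36 (SE 0.17) and 0.03 (SE 0.16) there. Of 13 regulators of the kinases, 0 were called between genotypes and 2 were lower at estrus in KO, where 8.95% of all tested genes were called lower. Hyou1, a chaperone of the endoplasmic reticulum, had a difference of -1.14 (SE 0.19, limma adjusted p = 0.006406), and Adar, which edits double-stranded RNA, one of -0.61 (SE 0.19, adjusted p = 0.04733). The Adar call was kept in 7 of 20 alternative settings and lost with the trend on length and GC content removed (-0.45, limma adjusted p = 0.1022), where that of Hyou1 was kept. Hspa5 (BiP), the chaperone that holds Eif2ak3 inactive, was at 66730, 50825 and 89400 in WT estrus and 31412, 44591 and 93372 in KO estrus. It overlapped between those groups, with a difference of -0.40 (SE 0.37, limma adjusted p = 0.5196), and was at 107449 and 121568 in KO diestrus. The cytosolic chaperone Hsp90ab1 differed by 0.16 (SE 0.15) between genotypes at estrus.

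Of the catalytic subunits that Ppp1r15a and Ppp1r15b recruit, 1 was called lower and 1 higher at estrus in KO. In that contrast 8.95% of all tested genes were called lower and 7.67% higher. Ppp1cb was lower at estrus, with a difference of -0.96 (SE 0.18, limma adjusted p = 0.008093), with 2363, 3026 and 3316 at estrus against 5511 and 5649 at diestrus. Ppp1ca was higher by 0.52 (SE 0.15, limma adjusted p = 0.03318), with 7411, 7181 and 7604 against 5357 and 4932. Both calls were lost with the trend on length and GC content removed, at -0.56 (limma adjusted p = 0.05876) for Ppp1cb and 0.19 (adjusted p = 0.3526) for Ppp1ca, and that of Ppp1ca was kept in 9 of 20 alternative settings. Ppp1cc was at -0.11 (SE 0.13), and 0 of the 6 genes of this list were called between genotypes. Its most abundant genes, the actins Actg1 and Actb, differed by 0.05 (SE 0.24) and 0.24 (SE 0.19) at estrus. Of the 8 other sensors of endoplasmic reticulum stress, 7 were tested and Ern2 was not. Atf6 was lower at estrus in KO, with a difference of -0.90 (SE 0.19, limma adjusted p = 0.01243), and at -0.55 (adjusted p = 0.03743) with the trend on length and GC content removed, while Xbp1, the target of the IRE1 branch, was at -0.13 (SE 0.16). None of the 7 was called between genotypes, and at estrus Xbp1 and Atf6 differed by -0.18 (SE 0.14) and -0.44 (SE 0.17).

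Of the 20 transcription factors and targets downstream of eIF2 alpha phosphorylation, 1 was called between genotypes at estrus, where 4.2% of all tested genes were called, with 7 above 0 and 13 below 0 and a median of -0.09 against -0.01 over all tested genes. That gene was Cebpb, a transcription factor of the mammary epithelium, at 1887, 1839 and 1640 in WT estrus and 2742, 2340 and 3677 in KO estrus. Every KO value was above every WT value, as for 12.9% of tested genes, with a difference of 0.68 (SE 0.17, limma adjusted p = 0.04593). The call was kept in 7 of 20 alternative settings and lost with the trend on length and GC content removed (0.40, limma adjusted p = 0.2165). At diestrus 16 of the 20 were above 0 in KO and 0 were called. Between stages in KO, 6 were lower at estrus and 2 higher, with a median of -0.65 against -0.01 over all tested genes, of which 8.95% were called lower and 7.67% higher. The lower genes were Psat1 (-2.08, serine synthesis), Vldlr (-2.27), Trib3 (-1.50, a pseudokinase), Sesn2 (-1.25, a leucine sensor), Cebpg (-0.79) and Asns (-0.73, asparagine synthesis). Vldlr was near the floor, at 10, 5 and 5 in KO estrus and 25 and 47 in KO diestrus. Its mean of 12.9 passed the filter only through the diestrus libraries. With a mean of at least 50 required, Vldlr was not tested and 5 of 18 genes were called lower. The higher genes were Stc2 (1.02, a secreted glycoprotein) and Cebpb (0.60). With the trend on length and GC content removed, Cebpg (-0.47, limma adjusted p = 0.09155) and Cebpb (0.29, adjusted p = 0.371) lost their calls and the other 6 kept theirs. Trib3 was at 377, 354 and 536 in KO estrus against 1124 and 1237 in KO diestrus, and at 640, 381 and 744 in WT estrus against 743 and 1011 in WT diestrus. In WT 16 of the 20 were also below 0, with a median of -0.21, and 0 were called.

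**Figure D4:**
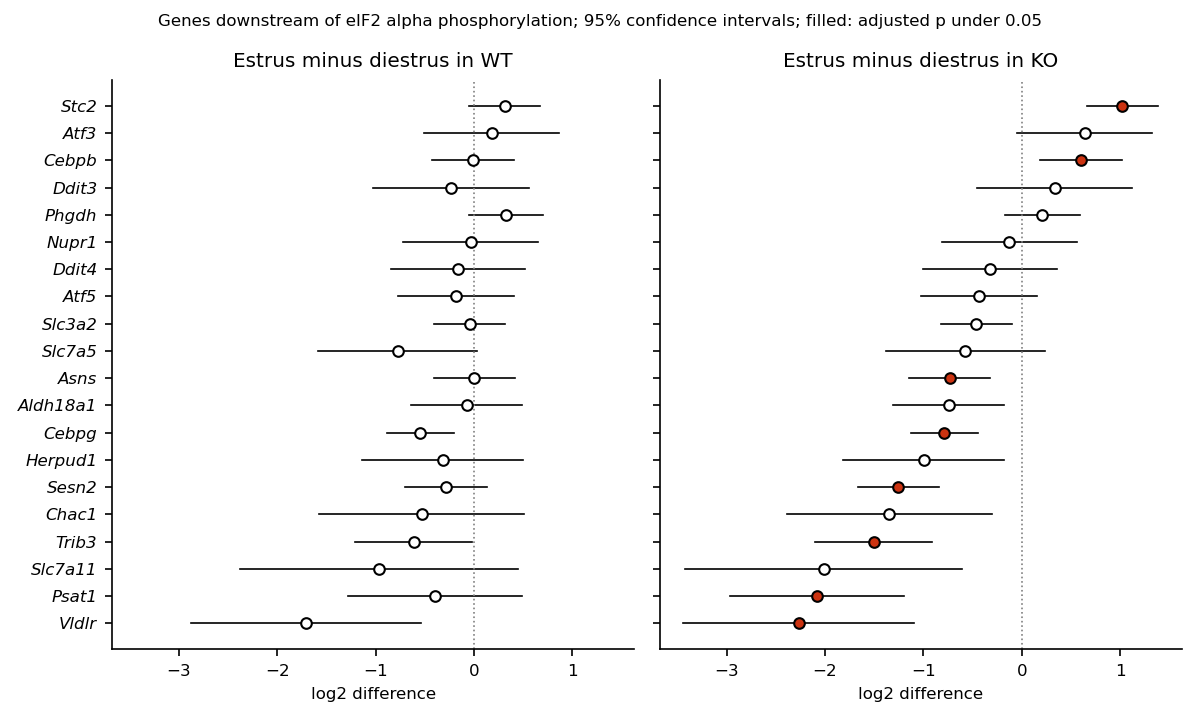
Estrus minus diestrus differences on the log2 scale for the 20 genes downstream of eIF2 alpha phosphorylation in WT and in KO, with filled points for an adjusted p of at most 0.05. In KO 15 of the 20 lie below 0 and 8 are filled, and in WT 16 lie below 0 and none is filled.

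The interferon-induced genes, of which Eif2ak2 is known to be one, were mostly higher at estrus than at diestrus in both genotypes. In WT, 14 of the 17 tested were above 0 with a median of 0.39, and in KO 13 with a median of 0.80. Eif2ak2 was at 0.22 (SE 0.27) in WT and was not called. Of the 17 tested of 20, 5 were called higher at estrus in KO (Isg15, Mx2, Oas1a, Irf7 and Bst2, by 0.92 to 1.51). Ddx58, a sensor of viral RNA, was called lower in KO, at -1.01, while Eif2ak2 was at -0.43 and not called. Over all tested genes 7.67% were called higher and 8.95% lower there. The calls of Isg15, Mx2 and Bst2 were lost with the trend on length and GC content removed, and Mx2 was called in 5 of 19 alternative settings. Of the 22 immediate-early genes, read beside Ppp1r15a because both are induced by acute stress, 4 were higher at estrus in KO (Junb, Egr3, Klf2 and Btg2, by 0.59 to 1.69), against the same 7.67% of all tested genes, while Ppp1r15a was at 0.05. Junb (0.34, limma adjusted p = 0.2505) and Btg2 (0.55, adjusted p = 0.07095) lost their calls with the trend on length and GC content removed. Egr3, with the largest of the 4 differences, was near the floor, at 14, 28 and 38 in KO estrus and 8 and 6 in KO diestrus. It was called in 11 of 19 alternative settings. In both lists 0 genes were called between genotypes at either stage, where the estrus differences of the most abundant genes were -0.01 for Irf9, 0.28 for Bst2, 0.55 for Fos and 0.35 for Atf3. At estrus 18 of the 22 immediate-early genes and 10 of the 17 interferon-induced genes were above 0. Both medians were 0.27, against -0.01 over all tested genes. Immediate-early calls there were 2 with a filter of 50, 2 with quantile normalization, 1 with equal totals and 0 with the length and GC trend removed. Of the 24 genes of the lists called between stages in KO, only Sesn2 was called without KO diestrus 1 and none without KO diestrus 2. With the trend on length and GC content removed, 13 of the 24 were called and 11 were not.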

How the data were processed

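RNA levels were read from 1 deposited table of 10 libraries. Per the submitters' processing notes, the authors used STAR, HTSeq, DESeq2 and the build mm10; versions, settings and annotation release are not given in the sources used here. Each deposited value is a score in that table's terms: a read count that the authors normalized and then rounded. The values are neither raw counts nor divided by length, so count tests were not run.

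Symbols, positions and transcript lengths came from GENCODE M21 (GRCm38), which named 26249 of the 26312 genes. limma 3.58.1 (R 4.3.3) was fitted to log2(value + 1) of 15180 genes with a mean of at least 10, with 1 mean per group over all 10 libraries and the spread allowed to follow the level. P-values of the 6 two-sided contrasts were adjusted across the tested genes (Benjamini-Hochberg, called at 0.05). Fold changes are on this scale, which understates changes of low genes. Groups of 2 borrow their spread from the others. Exact permutation tests compared genotypes within stages. Plots used Python 3.11.15 with matplotlib 3.10.9.

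The 8 members and the 7 lists were chosen with earlier results of these data known. The rule for names took all 8 members, each called gene of a list and otherwise the 2 of highest mean, and the 5 genes most like Eif2ak3 and Ppp1r15b. Eif2s1, Ppp1cc and single cell type markers, Trbc2 and Ptprc among them, are named outside it, after their values had been seen. Rps6ka3 and the genes that overlap members are outside it as well. Alternatives were pseudocounts of 0.5 and 5, a filter of 50 or none, equal totals, quantile normalization, removal of the trend on length and GC content (15146 genes), no trend in the spread, a replicate block, fits to the compared groups only, and omission of single libraries. The fit was tested on simulated data. Depth in reads is not known from these values, so no counting intervals are given.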

Additional observations from a re-analysis of the deposited data

How the results depend on the processing

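The authors' scaling was kept as deposited; equal totals and quantile normalization moved the median of all genes by less than 0.1 on the log2 scale, and tests on raw counts were not run because the values are already normalized. At estrus, 637 genes were called between genotypes (191 higher and 446 lower in KO). There were 271 higher and 303 lower with equal totals, 397 higher and 423 lower with quantile normalization, 89 genes without a filter, 200 with the trend on length and GC content removed, 23 with the estrus groups alone and 44 with no trend in the spread. Leaving out 1 library gave 67 to 909. The single member called there became 0 with the estrus groups alone and with no trend in the spread, and 0 to 1 with a library left out. At diestrus the 6 genes became 0 without a filter, 3 with a mean of at least 50, 2 without the trend in the spread, 98 with the groups alone and 0 to 28 with a library left out. Averaged over stages, the 101 genes became 10 without a filter, 51 with equal totals, 4 without the trend in the spread and 0 to 77 with a library left out. The 1 member called there became 0 under those 3 settings and under quantile normalization, and 0 to 1 with a library left out. The 2524 genes called between stages in KO became 1626 without a filter, 1491 with the trend on length and GC content removed and 39 to 2894 with a library left out, and the 2 members 0 to 3. Between stages in WT 0 to 6 genes were called with a library left out, and for the interaction 3 with quantile normalization and 0 to 3 with a library left out. Where an omission left 1 library in a group, that library was assumed to vary like the others. The cause of these changes was not tested.

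The replicate numbers are shared between genotypes, but deviations of same-numbered estrus libraries correlated by only 0.187, 0.0835 and 0.0309, and those at diestrus by -0.0363, and nothing in the labels pairs them. 5 of the 6 estrus libraries correlated best with their own number. With the replicate block, 996 genes were called between genotypes at estrus and 1 between stages in WT. Eif2ak4 was then called between stages in KO (-0.79, limma adjusted p = 0.02375), as it was without KO estrus 3 (-0.82, adjusted p = 0.03913), and its stage difference in WT turned to -0.11.

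Signs turned only for differences that were not called (18 of them, smallest limma adjusted p 0.6824 where turned). With the trend on length and GC content removed, the estrus difference between genotypes was -0.0849 for Ppp1r15a, 0.00889 for Ppp1r15b, 0.0934 for Nck1 and -0.14 for Atf4. Nck1 became -0.0162 at diestrus, 0.0386 averaged and 0.11 for the interaction, and Ppp1r15a -0.10 between stages in KO. With a library left out, the genotype difference at estrus ran from -0.0816 to 0.126 for Ppp1r15a, from -0.353 to 0.0226 for Nck1 and from -0.10 to 0.19 for Atf4. At diestrus it ran from -0.0854 to 0.350 for Eif2ak4, from -0.11 to 0.22 for Nck1 and from -0.0618 to 0.308 for Atf4. Averaged, it ran from -0.0348 to 0.0848 for Eif2ak1, from -0.0794 to 0.225 for Eif2ak2, from -0.150 to 0.0381 for Nck1 and from -0.0148 to 0.170 for Atf4. The stage difference in WT ran from -0.0891 to 0.520 for Eif2ak2, from -0.0737 to 0.174 for Eif2ak4, from -0.301 to 0.0440 for Nck1 and from -0.282 to 0.0873 for Atf4. That in KO ran from -0.0429 to 0.125 for Ppp1r15a, and the interaction from -0.275 to 0.0940 for Atf4. Precision is limited by the 2 libraries in each diestrus group.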
